A study of Homo sapiens with 6 samples.

Results

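The genes described here form the machinery that folds, checks and exports secreted proteins in the endoplasmic reticulum (ER), together with the stress response that guards it. They were chosen by symbol from a list of 38 genes: 16 chaperones and foldases, 13 stress sensors and targets, and 9 genes of translocation, COPII export and retrieval. Of these, 32 had a row among the 16569 genes of the table, namely 14, 10 and 8 of the 3 groups. PDIA6, P4HB, ATF6, CREB3L2, ATF4 and SEC31A were not analysed here. RNA was sequenced from LX-2, a human line of immortalised hepatic stellate cells labelled as wild type in genotype, with 3 libraries given 100 ng/mL IGFBP-7, a secreted insulin-like growth factor binding protein, and 3 given phosphate-buffered saline (PBS). Both groups had been grown in 2% fetal bovine serum and then held without serum for 18 h, and each treatment lasted 24 h. All 6 libraries came from the same line, and no label ties the libraries of a group to separate cultures, so the p-values measure a spread that may be technical.

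The IGFBP-7 libraries held 45242993 to 55479940 reads recovered from the deposited values and the PBS libraries 40599380 to 43537923. No library stood apart: the log2 levels of libraries of the same group correlated across genes at 0.987 to 0.989, and those of different groups at 0.952 to 0.954. The stellate and mesenchymal marker list, 12 of 14 with a row, summed to 338090.0 to 372552 normalized counts with IGFBP-7 and 117199 to 121696 with PBS. COL1A1 carried that sum, and of the 11 tested genes 8 were called higher, such as PDGFRB at 8224 ± 266 with IGFBP-7 and 3055 ± 79.0 with PBS (SD, n = 3), and 2 lower, THY1 at 5714 ± 196 with IGFBP-7 and 6908 ± 234 with PBS and HAND2 at 70.8 ± 12.1 with IGFBP-7 and 107 ± 17.9 with PBS. DES, the desmin gene, was at 1.36 ± 2.36 with IGFBP-7 and listed at 0 in the PBS libraries. The epithelial list, 9 of 10 with a row, summed to 37692 to 43790.0 normalized counts with IGFBP-7 and 27502 to 28318 with PBS. KRT8 and KRT18 carried that sum, 3 of 4 tested genes were called higher and none lower, and EPCAM averaged 6.13 with IGFBP-7 and 2.82 with PBS. The macrophage and leukocyte list, 8 of 10 with a row, summed to 1742 to 2037 normalized counts with IGFBP-7 and 3292 to 3372 with PBS. Of its 3 tested genes CD68, which carried the sum, was at 1466 ± 135 with IGFBP-7 and 2863 ± 53.3 with PBS and CD14 was lower too, whereas CSF1R was called higher at 293 ± 44.3 with IGFBP-7 and 56.5 ± 8.05 with PBS, and the defining leukocyte gene PTPRC averaged 4.67 with IGFBP-7 and 5.59 with PBS. The endothelial list, 9 of 10 with a row, summed to 2339.9 to 2400.3 normalized counts with IGFBP-7 and 2591 to 2822 with PBS. TIE1 carried that sum and was called lower, at 1908 ± 44.3 with IGFBP-7 and 2339.5 ± 96.1 with PBS, 2 of the 6 tested genes were called higher, PECAM1 at 113 ± 10.2 with IGFBP-7 and 61.5 ± 3.80 with PBS and TEK at 224 ± 35.1 with IGFBP-7 and 138 ± 34.5 with PBS, and CDH5 was listed at 0 with IGFBP-7 and averaged 9.72 ± 6.38 with PBS. The hepatocyte list, 8 of 10 with a row, summed to 231 to 262 normalized counts with IGFBP-7 and 252 to 295 with PBS, and ALB averaged 1.81 with IGFBP-7 and 0.712 with PBS. The stellate, epithelial, macrophage and endothelial sums did not overlap between groups, and their part in the results was not tested.

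Proteins bound for secretion enter the ER through the SEC61 channel, are folded there by chaperones and disulfide isomerases, and leave in vesicles coated by the COPII proteins. When unfolded protein builds up, the sensors IRE1-alpha, PERK and ATF6 start the unfolded protein response, which raises chaperone genes through ATF6 and spliced XBP1 and, through PERK and ATF4, induces genes such as DDIT3 and TRIB3. Activated stellate cells secrete large amounts of collagen, and procollagen is too large for an ordinary COPII vesicle, so that its export depends on helpers such as TANGO1. The sensors act mostly through phosphorylation, splicing and cleavage, and gene-level counts show none of these steps.

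After 24 h with IGFBP-7 the folding and export genes rose while PPP1R15A, DDIT3, TRIB3 and CHAC1, targets of the PERK and ATF4 branch, fell, as did the sensor gene ERN1. Of a wider list of 38 ATF4 and integrated stress response targets that holds no member, 24 were tested. They were split, with 9 higher, 10 lower and 5 neither. All 14 tested chaperones and foldases and all 8 genes of translocation, COPII export and retrieval were higher, and the stress sensors and targets were divided, 5 higher and 5 lower. A gene was called at an adjusted p under 0.05 (limma-trend, two-sided, Benjamini-Hochberg over 11872 tested genes). Among all tested genes 60.6% were called, 31.3% higher and 29.2% lower. All 32 members with a row passed the filter on low values, a mean of at least 10 normalized counts, and all 32 were called. A filter at a mean of 100 also kept all 32. Of the 8850 genes it left, 3449 were called higher and 3007 lower, a larger share than with the filter at 10. The IGFBP-7 and PBS libraries did not overlap for any of the 32, against 63.5% of all tested genes without overlap. Median log2 changes were 0.47 for the chaperones and -0.12 for the sensors and targets, against 0.024 for all tested genes. The median was 0.41 for translocation, COPII export and retrieval, called the export group below. The quartiles of all tested genes were -0.35 and 0.32. In the export group SEC61A1 serves import (0.33), and KDELR3 (0.78) and KDELR2 (0.52) serve retrieval. The COPII and procollagen export genes rose by 0.62 (SEC24D), 0.50 (SEC23A), 0.28 (MIA2), 0.24 (MIA3) and 0.22 (SEC24A). Most rises were moderate, and 7 of 27 rising members rose by at least 1.5-fold. In RNA from whole cultures, fewer cells expressing a gene and less RNA per cell cannot be told apart.

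**Figure D1:**
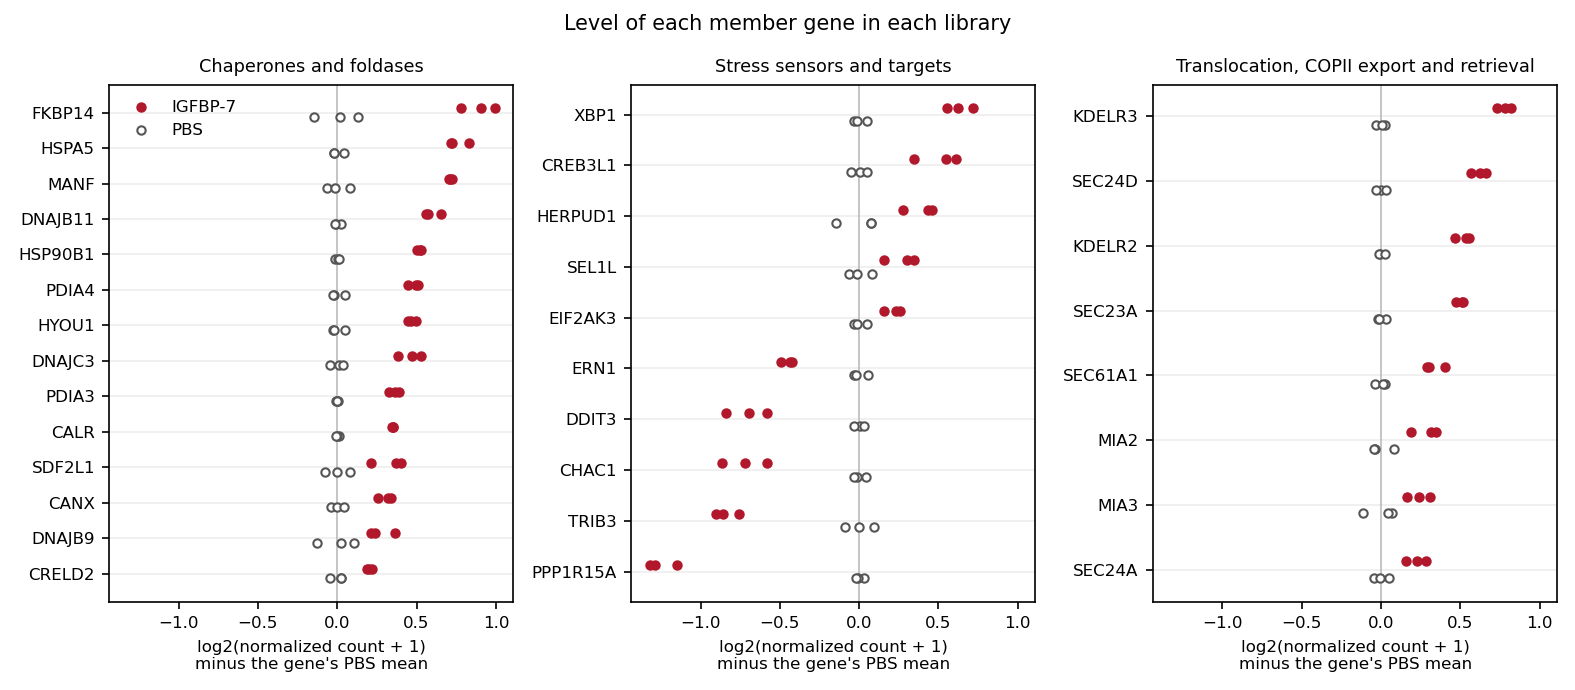
Level of each member in each library, as log2(normalized count + 1) minus the gene's mean over the PBS libraries, for the 3 groups of genes (filled, IGFBP-7; open, PBS). For every member the IGFBP-7 points lie wholly to one side of the PBS points, from FKBP14 at the top of the chaperones (0.89) to PPP1R15A at the foot of the stress group (-1.25).

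The choice of scaling moved these values. FN1, the fibronectin gene, and COL1A1, which encodes a chain of type I collagen, are genes of abundant secreted cargo. They rose by 2.40 ± 0.04 and 2.00 ± 0.04 with the deposited normalization. With scaling to the library total the rises were 2.26 for FN1 and 1.86 for COL1A1, and with quantile normalization 1.15 and 1.42. FN1 averaged 544971 normalized counts with IGFBP-7 and 102918 with PBS, and COL1A1 198928 and 49614. The summed normalized counts of all genes were 23373767 to 24123228 in the IGFBP-7 libraries and 21287527 to 21682060 in the PBS libraries. Which genes raised the sums was not tested. Scaling the libraries to the same total shifted the median of all tested genes by -0.14. It left 20.5% of all tested genes higher and 35.2% lower. Of the members, 12 of 14 chaperones, 4 of 10 sensors and targets and 5 of 8 genes of the export group stayed higher. The same scaling left 5 sensors and targets lower. The calls lost in the export group were those of SEC24A, MIA2 and MIA3, while SEC23A, SEC24D, SEC61A1, KDELR2 and KDELR3 kept theirs. Relative to the median of all tested genes, the chaperone median was 0.44 with the deposited normalization, 0.44 with scaling to the total and 0.26 with quantile normalization. The export median was 0.39 with the deposited normalization, 0.39 with scaling to the total and 0.28 with quantile normalization. Scaling to the total shifts every gene of a library by nearly the same log2 amount, so it cannot test these relative medians. Quantile normalization can move them, and it made both smaller. No member changed sign under these scalings, and the members whose call was lost are named with their values below.

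**Figure D2:**
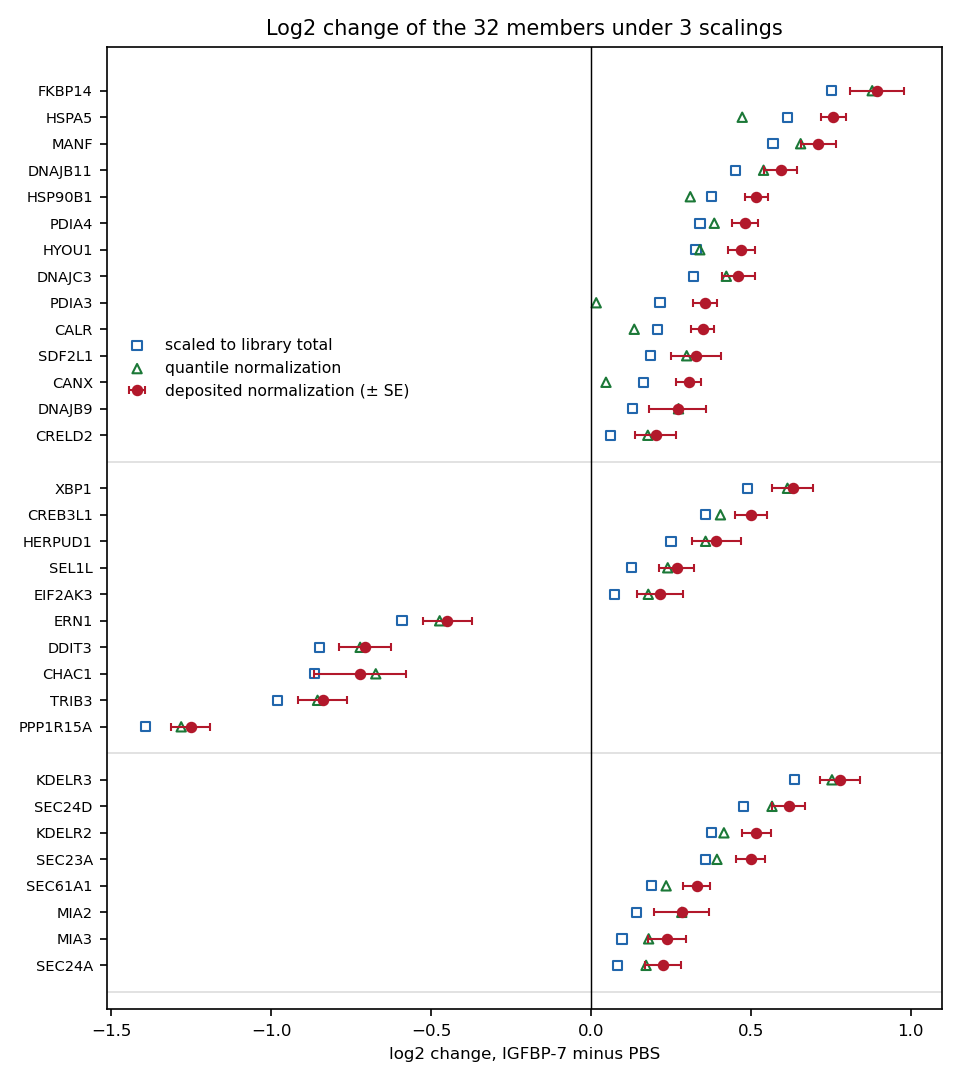
Log2 change of the 32 members, IGFBP-7 minus PBS, with the deposited normalization (filled circles, with limma's SE), with scaling to the library total (squares) and with quantile normalization (triangles). Every marker of a gene lies on the same side of 0, and the markers nearest to 0 are those of PDIA3 and CANX with quantile normalization and of CRELD2 with scaling to the total.

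Some promoters of these genes carry elements through which the unfolded protein response is known to act, and the matches are shown as a description of the members. RefSeq promoters (GRCh38.p14, 250 bases before to 50 after the annotated start) were matched by symbol for 27 of the 32 members. There was no entry for PDIA3, FKBP14, SEC24D, KDELR2 and MIA2. Each was searched on both strands for the ER stress response element ERSE (CCAAT, any 9 bases, CCACG), bound by ATF6 together with NF-Y, for ERSE-II (ATTGG, any 1 base, CCACG), for the XBP1 and ATF6 element UPRE (TGACGTGG) and for an ATF4 element (TGATGNAAN). ERSE and ERSE-II share their CCACG end, and UPRE may overlap it. ERSE was found in 5 of 12 chaperone promoters and 1 of 10 promoters of sensors and targets, against 0.0806% of 27305 promoters of the same length. The elements were chosen as known ones of this response, so the contrasts with all promoters are no test. In motif orientation, with the fixed letters in capitals, the 7 matches read as follows.
CANX: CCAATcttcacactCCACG
HSPA5: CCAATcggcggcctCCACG
HSP90B1, distal: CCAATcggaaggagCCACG
HSP90B1, proximal: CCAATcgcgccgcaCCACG
CALR: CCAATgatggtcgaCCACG
CRELD2: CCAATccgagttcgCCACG
XBP1: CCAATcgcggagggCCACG

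These 6 genes were called higher, and so were the 7 searched chaperones with no ERSE match, among them MANF (0.71) and DNAJB11 (0.59). ERSE-II was found in HYOU1, SDF2L1 and HERPUD1, against 0.0549% of all promoters, and these 3 genes rose. The UPRE letters stood in 3 of 5 promoters of the export group, those of SEC23A, SEC24A and KDELR3, and in HYOU1, against 0.795% of all promoters. The ATF4 element stood in CHAC1, which fell, and in HERPUD1, which rose, against 3.67% of all promoters, and had no match in the promoters of PPP1R15A, DDIT3 and TRIB3, which fell. Over all 4 motifs, 12 of 13 members with a match were called higher, as were 10 of the 14 searched members without one. A match describes letters in this window and no binding was measured.

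**Figure D3:**
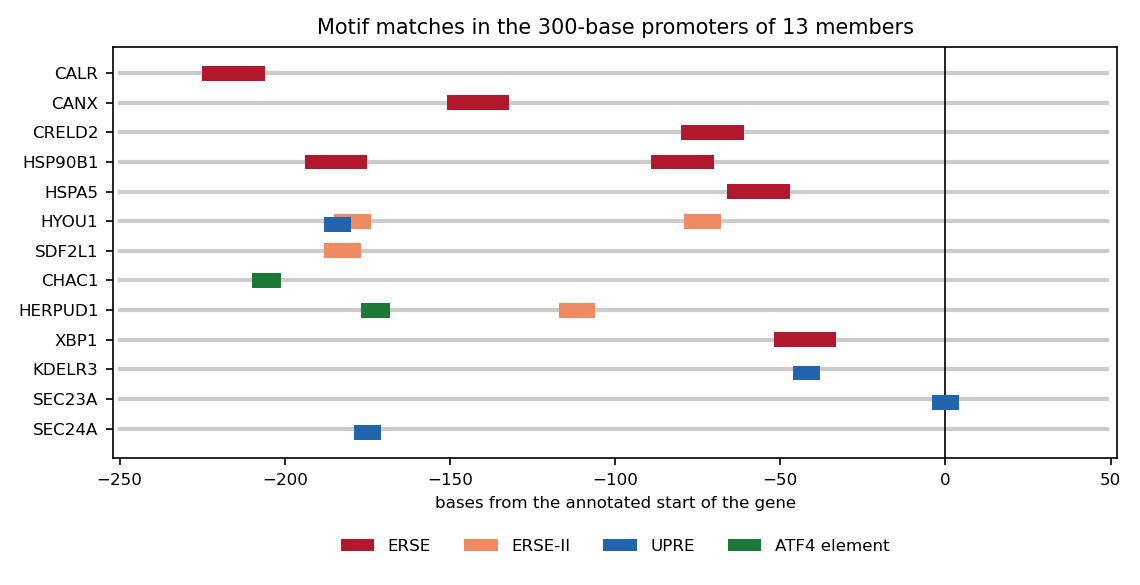
Position of the motif matches in the 13 member promoters that hold at least 1, in bases from the annotated start of the gene (black line at 0; grey bars, the 300 bases searched). The ERSE match of HSPA5 begins 66 bases before the start, HSP90B1 and HYOU1 hold a pair of ERSE or ERSE-II matches, and HERPUD1 holds both an ERSE-II match and an ATF4 element.

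The promoters below show these arrangements, with the fixed letters of each match in capitals and the strand of the gene given 5′ to 3′. HSPA5 (chr9:125241294-125241593, minus strand) has 1 exact ERSE match close to its start. HYOU1 (chr11:119057156-119057455, minus strand) has its distal ERSE-II overlapping the UPRE and a second ERSE-II downstream, both in reverse orientation. HERPUD1 (chr16:56931892-56932191, plus strand) has an ATF4 element in reverse orientation upstream of its ERSE-II, and CHAC1 (chr15:40953221-40953520, plus strand) has the ATF4 element alone.
HSPA5: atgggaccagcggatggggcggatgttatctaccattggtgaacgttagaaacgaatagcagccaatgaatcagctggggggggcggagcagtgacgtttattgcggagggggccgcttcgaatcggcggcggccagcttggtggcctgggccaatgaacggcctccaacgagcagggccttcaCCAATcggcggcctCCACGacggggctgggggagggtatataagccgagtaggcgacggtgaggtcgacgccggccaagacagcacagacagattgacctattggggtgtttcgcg
HYOU1: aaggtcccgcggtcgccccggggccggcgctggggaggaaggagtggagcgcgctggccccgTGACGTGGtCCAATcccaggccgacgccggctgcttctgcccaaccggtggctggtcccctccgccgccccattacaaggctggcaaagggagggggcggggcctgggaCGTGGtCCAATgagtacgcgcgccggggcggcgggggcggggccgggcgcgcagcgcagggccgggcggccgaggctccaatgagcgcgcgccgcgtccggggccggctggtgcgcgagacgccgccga
HERPUD1: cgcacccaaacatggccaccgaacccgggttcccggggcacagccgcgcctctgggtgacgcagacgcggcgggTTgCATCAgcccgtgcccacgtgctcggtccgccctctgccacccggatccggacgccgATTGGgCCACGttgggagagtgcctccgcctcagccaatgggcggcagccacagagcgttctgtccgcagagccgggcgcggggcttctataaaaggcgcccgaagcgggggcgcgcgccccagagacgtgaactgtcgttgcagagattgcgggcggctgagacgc
CHAC1: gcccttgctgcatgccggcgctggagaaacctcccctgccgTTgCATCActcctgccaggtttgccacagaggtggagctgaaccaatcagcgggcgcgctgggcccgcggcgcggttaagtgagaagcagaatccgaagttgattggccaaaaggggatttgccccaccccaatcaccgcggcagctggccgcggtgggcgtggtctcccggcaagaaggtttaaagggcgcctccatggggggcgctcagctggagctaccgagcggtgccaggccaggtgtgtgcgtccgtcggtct

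Among the chaperones, HSPA5, which encodes BiP, the ER member of the HSP70 family and the brake on the stress sensors, had 54672, 50333 and 50658 normalized counts in the IGFBP-7 libraries, against 30221, 30288 and 31547 in the PBS libraries. The lowest IGFBP-7 library stood far above the highest PBS library. The gene rose 1.69-fold, a log2 change of 0.76 ± 0.04 (limma's standard error, SE; limma adjusted p = 7.58e-23). HSP90B1, which encodes GRP94, the HSP90 of the ER, had 66361, 66977 and 67382 with IGFBP-7, against 46269.7, 46788 and 47170.4 with PBS, and rose by 0.52 ± 0.04. Both groups were tight for this gene, with SDs of 514 with IGFBP-7 and 452 with PBS.

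BiP works with J-domain cofactors and a nucleotide exchange factor, and these genes rose with it. DNAJB11, which encodes the BiP cofactor ERdj3, had 6297, 6230.4 and 6647 with IGFBP-7, against 4205, 4300.3 and 4193 with PBS (0.59 ± 0.05). DNAJC3, which encodes the cofactor p58IPK, had 6482, 6751 and 6103 with IGFBP-7, against 4522, 4719.6 and 4797 with PBS (0.46 ± 0.05). HYOU1, which encodes the exchange factor GRP170, had 20115, 19422 and 19684 with IGFBP-7, against 13983, 14059 and 14733 with PBS (0.47 ± 0.04). For all 3 the lowest IGFBP-7 library lay above the highest PBS library. SDF2L1, which encodes a partner of ERdj3, had 1409, 1233 and 1377 with IGFBP-7, against 1009, 1125 and 1065 with PBS (0.33 ± 0.08, limma adjusted p = 3.12e-04). DNAJB9 (ERdj4) rose by 0.27 ± 0.09 (limma adjusted p = 0.00701), with 883, 982 and 899 in the IGFBP-7 libraries, against 698, 819 and 777 in the PBS libraries. Its groups did not overlap but lay close, and the call was lost with scaling to the library total (0.13, adjusted p = 0.213), without IGFBP-7 replicate 2 (adjusted p = 0.0522) and without PBS replicate 1 (adjusted p = 0.0574).

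The lectin chaperones and disulfide isomerases, which fold glycoproteins and form their disulfide bonds, had smaller log2 changes than HSPA5, from 0.31 to 0.48. CALR (calreticulin) had 66346, 66522 and 66719 with IGFBP-7, against 52534, 52183 and 52006 with PBS, a log2 change of 0.35 ± 0.04. CANX (calnexin) had 35157, 34841 and 33282 with IGFBP-7, against 27057, 27841 and 28697 with PBS (0.31 ± 0.04). The lectins hold glycoproteins for PDIA3 (ERp57), whose gene had 41103, 40042 and 41882 with IGFBP-7, against 32173, 31887 and 31963 with PBS (0.36 ± 0.04). PDIA4 (ERp72), another isomerase, had 25868, 25637 and 24776 with IGFBP-7, against 17937, 17884 and 18784 with PBS (0.48 ± 0.04). None of the 4 overlapped between groups, and CANX and PDIA3 lost the call with quantile normalization (0.047, adjusted p = 0.245 and 0.016, adjusted p = 0.683). In ratios within a library, which no scaling factor can move, HSPA5 over CALR was 0.824, 0.757 and 0.759 with IGFBP-7, against 0.575, 0.58 and 0.607 with PBS, higher in each IGFBP-7 library than in any PBS library. These ratios, here and below, were chosen after the values were seen, are of counts not corrected for length, and carry no test.

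The steepest rise among the foldases was in FKBP14, which encodes a prolyl isomerase that acts on collagens. It had 1468, 1383 and 1267 normalized counts with IGFBP-7, against 665, 806 and 746 with PBS, and rose 1.86-fold (0.89 ± 0.08, limma adjusted p = 3.84e-13). Its antisense gene FKBP14-AS1 was at 235 ± 30.1 normalized counts with IGFBP-7 and 161 ± 27.2 with PBS and rose by 0.55 ± 0.16. MANF, a secreted ER-resident factor induced by ER stress, had 5838, 5782 and 5750.1 with IGFBP-7, against 3373, 3745 and 3500.2 with PBS (0.71 ± 0.05). CRELD2, another ER-resident factor that is induced by ER stress, had 2379.8, 2349 and 2324 with IGFBP-7, against 2081, 2074 and 1977 with PBS. It changed by 0.20 ± 0.06, the smallest rise among the 14, and lost its call with scaling to the library total (0.060, adjusted p = 0.417). GENCODE places a gene of the table on the opposite strand across 12 of the 32 members, and the sources used here do not give the strand setting of the counting, so reads of such pairs may be shared. Across HSP90B1 lies UQCC6, which rose by 0.52 ± 0.05, and across DDIT3 lies MBD6, which had a change of -0.26 ± 0.06. Not all pairs moved together. Across SEC61A1, which rose by 0.33 ± 0.04, lie MGLL, at -1.24 ± 0.08, and RUVBL1, at 0.26 ± 0.06. ELL3 across PDIA3 (-0.24 ± 0.15) and EIF2AK3-DT across EIF2AK3 (-0.35 ± 0.23) did not pass.

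The sensors moved in different directions. XBP1, the transcription factor whose transcript IRE1-alpha splices, had 2837, 3033 and 2713 normalized counts with IGFBP-7, against 1908, 1802 and 1826 with PBS. It rose 1.55-fold (0.63 ± 0.06, limma adjusted p = 3.00e-12), and the counts do not separate its spliced from its unspliced form. ERN1, which encodes IRE1-alpha itself, had 1025, 986 and 1031 with IGFBP-7, against 1353, 1366 and 1437 with PBS, and fell by 0.45 ± 0.08 on the log2 scale. The ratio of XBP1 to ERN1 was 2.77, 3.08 and 2.63 with IGFBP-7 and 1.41, 1.32 and 1.27 with PBS. EIF2AK3, which encodes PERK, had 1456, 1535 and 1562 with IGFBP-7, against 1276, 1351 and 1295 with PBS (0.22 ± 0.07, limma adjusted p = 0.009), and lost its call with scaling to the library total (0.074, adjusted p = 0.396). CREB3L1, which encodes OASIS, a membrane-bound factor of the ATF6 type needed for type I collagen expression in mouse bone, had 12752, 10649 and 12210.0 with IGFBP-7, against 8403, 8061 and 8642 with PBS. It rose by 0.50 ± 0.05 (limma adjusted p = 4.02e-12), with IGFBP-7 replicate 2 lowest of its group yet above every PBS library.

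Targets that serve ER-associated degradation rose. HERPUD1, which encodes a ubiquitin-like scaffold of the retrotranslocation complex, had 1663, 1464 and 1636 with IGFBP-7, against 1093, 1272 and 1270.0 with PBS (0.39 ± 0.08). SEL1L, which encodes the partner of the ubiquitin ligase HRD1, had 5891, 6096 and 5347 with IGFBP-7, against 4574, 4747 and 5059 with PBS (0.27 ± 0.05). Neither gene overlapped between groups.

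PPP1R15A, DDIT3, TRIB3 and CHAC1, which PERK and ATF4 induce, were lower. PPP1R15A, which encodes GADD34, the phosphatase subunit that reverses eIF2-alpha phosphorylation, had 1671, 1711 and 1885 with IGFBP-7, against 4258, 4152 and 4121 with PBS. It fell to 0.420 of the PBS level, a log2 change of -1.25 ± 0.06 (limma adjusted p = 7.17e-24), and this was the furthest any of the 32 members moved. DDIT3, which encodes the pro-apoptotic factor CHOP, had 789, 945 and 872 with IGFBP-7, against 1420.0, 1383 and 1443 with PBS (-0.71 ± 0.08, limma adjusted p = 9.13e-11). TRIB3, a pseudokinase gene induced by ATF4 and CHOP, had 949.7, 857 and 887 with IGFBP-7, against 1602, 1506 and 1714 with PBS (-0.84 ± 0.08). CHAC1, which encodes an enzyme that degrades glutathione, had 196, 179 and 161 with IGFBP-7, against 292, 303 and 288 with PBS (-0.72 ± 0.14). In each of these 4 genes the highest IGFBP-7 library was below the lowest PBS library, and the calls held under every scaling tried. HSPA5 over DDIT3 within a library was 69.3, 53.3 and 58.1 with IGFBP-7, against 21.3, 21.9 and 21.9 with PBS.

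**Figure D4:**
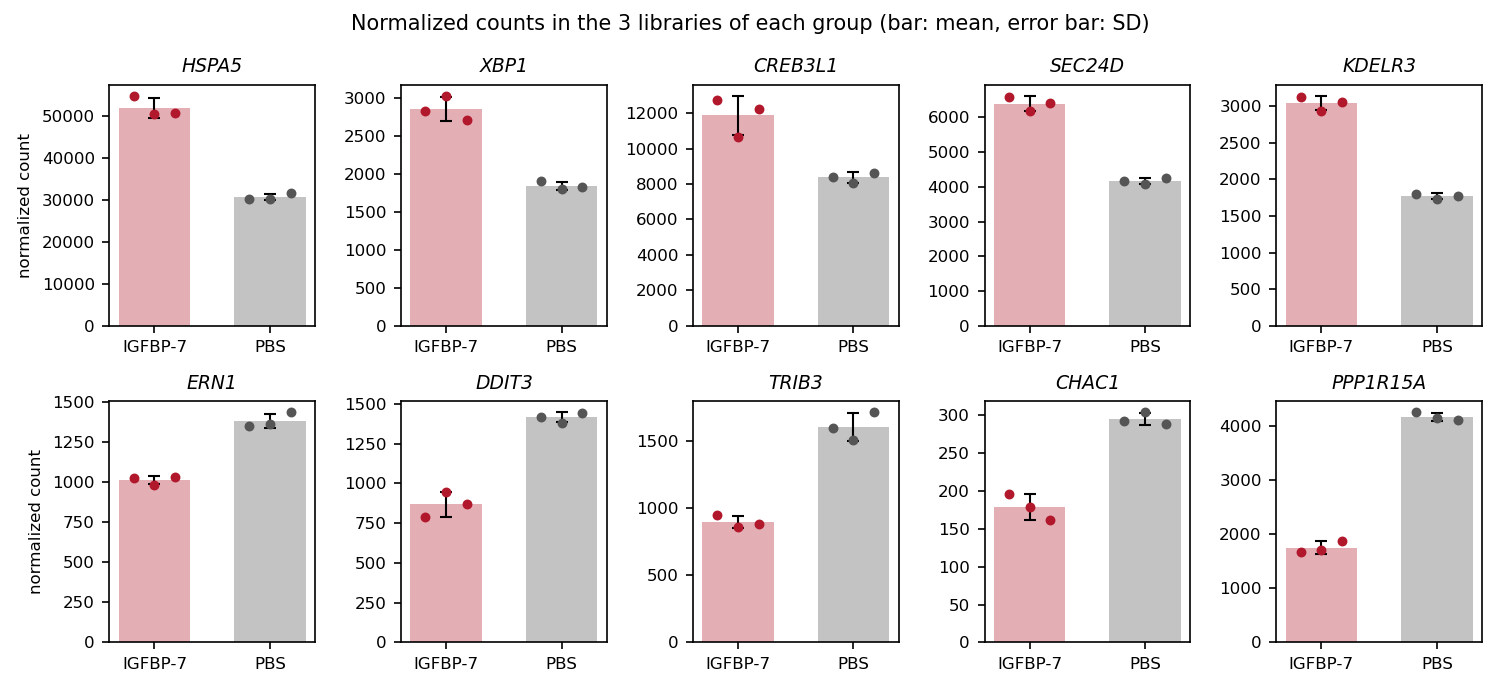
Normalized counts of 10 members in the 3 libraries of each group (bars, mean; error bars, SD; points, libraries). The upper row shows genes that rose with IGFBP-7, such as HSPA5 at 51888 against 30685 normalized counts, and the lower row genes that fell, such as PPP1R15A at 1756 against 4177.

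Of the genes that carry proteins into and out of the ER, SEC61A1, which encodes the channel of the translocon, had 21869, 20215 and 20409.9 normalized counts with IGFBP-7, against 16867, 16094 and 16701 with PBS (0.33 ± 0.04). The channel gene rose without overlap between groups. Of the COPII coat genes, SEC24D and SEC23A rose most. SEC24D, which encodes a cargo-binding coat subunit, had 6602, 6171 and 6428 with IGFBP-7, against 4160.2, 4083 and 4262 with PBS, and rose 1.53-fold (0.62 ± 0.05, limma adjusted p = 7.26e-15). SEC23A, which encodes the subunit that pairs with SEC24 proteins, had 12686, 12620.0 and 12310.2 with IGFBP-7, against 8760.1, 9067 and 8793 with PBS (0.50 ± 0.05, limma adjusted p = 8.53e-14). Mutations of either gene cause skeletal disease in humans in which collagen is held back in the ER. SEC24A, a paralog of SEC24D, had 3921, 4118 and 4277 with IGFBP-7, against 3400.2, 3503 and 3640.1 with PBS (0.22 ± 0.06), and its call was lost with scaling to the library total (0.082, adjusted p = 0.203). SEC24D over SEC24A was 1.68, 1.5 and 1.5 within the IGFBP-7 libraries, against 1.22, 1.17 and 1.17 within the PBS libraries, without overlap.

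MIA3 encodes TANGO1, the receptor that loads procollagen at ER exit sites, and MIA2 encodes its partner cTAGE5. MIA3 had 3822, 3647 and 3460.4 with IGFBP-7, against 2858, 3236 and 3179 with PBS (0.24 ± 0.06), and MIA2 had 864, 943 and 963 with IGFBP-7, against 737, 801 and 736 with PBS (0.28 ± 0.09). Their groups did not overlap, but both calls were lost with scaling to the library total (0.10, adjusted p = 0.147 for MIA3 and 0.14, adjusted p = 0.164 for MIA2). The ratio of MIA3 to MIA2 overlapped between groups, at 4.42, 3.87 and 3.59 with IGFBP-7 and 3.88, 4.04 and 4.32 with PBS.

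KDEL receptors return chaperones that escape to the Golgi by binding the tail signal of proteins such as BiP. KDELR3 had 3129, 2935 and 3052 with IGFBP-7, against 1804, 1734 and 1777 with PBS, the largest rise of the export group (0.78 ± 0.06, limma adjusted p = 1.44e-15). KDELR2 had 12768, 12024 and 12623 with IGFBP-7, against 8662, 8625 and 8842 with PBS (0.52 ± 0.05). The ratio of KDELR3 to KDELR2 was 0.245, 0.244 and 0.242 with IGFBP-7, against 0.208, 0.201 and 0.201 with PBS, so every IGFBP-7 library lay above every PBS library.

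Other genes of the same pathways were taken from 7 lists that hold no member. The lists named 39 chaperones and foldases, 35 translocon genes, 28 degradation genes and 41 COPII genes. They also named 26 COPI genes, 38 ATF4 targets and 19 sensors and regulators. Only the genes tested here are counted below, so each list is covered in part. Among other ER chaperones and foldases, 17 of 21 were called higher and 2 lower, and their median log2 change was 0.35. FKBP7, an ER prolyl isomerase gene, rose by 0.75 ± 0.12 and PPIB, which encodes cyclophilin B, by 0.63 ± 0.04, whereas the oxidase gene QSOX1 was at -0.77 ± 0.04 and ERP29, which encodes a non-catalytic relative of the isomerases, at -0.31 ± 0.05. All 19 tested genes of the translocon, signal recognition and oligosaccharyltransferase rose, with a median of 0.32, and 16 of them still passed with scaling to the library total. OSTC, an oligosaccharyltransferase subunit gene, rose by 0.79 ± 0.06 and SSR1, which encodes a translocon-associated protein, by 0.63 ± 0.05. Of the 12 tested genes of ER-associated degradation, 8 rose and 4 fell (median 0.24), and 5 of 12 were higher with scaling to the total. DERL3, which encodes a Derlin of the retrotranslocation complex, rose by 0.64 ± 0.15 and EDEM3, which encodes a mannose-trimming enzyme, by 0.54 ± 0.07, while FAM8A1, which encodes a partner of HRD1, was at -0.40 ± 0.08.

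Of 20 other COPII coat and cargo receptor genes, 16 were called higher and 2 lower (median 0.28), and scaling to the library total left 11 higher. YIPF5, an ER-to-Golgi membrane protein gene, was at 10368 ± 286 normalized counts with IGFBP-7 and 4215 ± 19.1 with PBS, a rise of 1.30 ± 0.05 that exceeded that of every member. LMAN1, which encodes the glycoprotein cargo receptor ERGIC-53, rose by 0.56 ± 0.04. SEC22B, which encodes a SNARE of this route, was at 6256 ± 205 normalized counts with IGFBP-7 and 9835 ± 284 with PBS (-0.65 ± 0.05), and KLHL12, which encodes an adaptor for SEC31 ubiquitylation, at -0.21 ± 0.07. Without IGFBP-7 replicate 3 or without PBS replicate 3 only 1 gene of this list was called lower. Of 11 COPI retrieval genes, 10 rose and 1 did not pass (median 0.33). Scaling to the library total left 8 of the 11 higher, and quantile normalization 9. The largest rises were those of ARFGAP1 (0.72 ± 0.05) and ARF4 (0.61 ± 0.05), which regulate the coat.

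The 24 other tested targets of ATF4 and the integrated stress response, 9 higher and 10 lower, had a median log2 change of 0.11 that turned to -0.026 with scaling to the library total. GDF15, a stress cytokine gene, was at 35.1 ± 11.5 normalized counts with IGFBP-7 and 121 ± 21.4 with PBS (-1.79 ± 0.27), and STC2, which encodes a secreted glycoprotein, at 1166 ± 35.2 normalized counts with IGFBP-7 and 3428 ± 227 with PBS (-1.55 ± 0.07). DDIT4, which encodes the mTORC1 inhibitor REDD1, rose by 1.07 ± 0.09 and PYCR1, an enzyme gene of proline synthesis, by 0.71 ± 0.06. Among 7 other sensors, proteases and eIF2-alpha regulators, 2 were called higher and 3 lower (median -0.11). EIF2S1, which encodes eIF2-alpha, rose by 0.45 ± 0.05 and MBTPS2, which encodes the site-2 protease that releases ATF6, by 0.20 ± 0.06. Only 1 gene of this list was called higher with scaling to the library total or without IGFBP-7 replicate 2. ATF6B, a paralog of ATF6, was at -0.47 ± 0.05 and EIF2AK4, which encodes the amino acid sensor GCN2, at -0.29 ± 0.05.

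**Figure D5:**
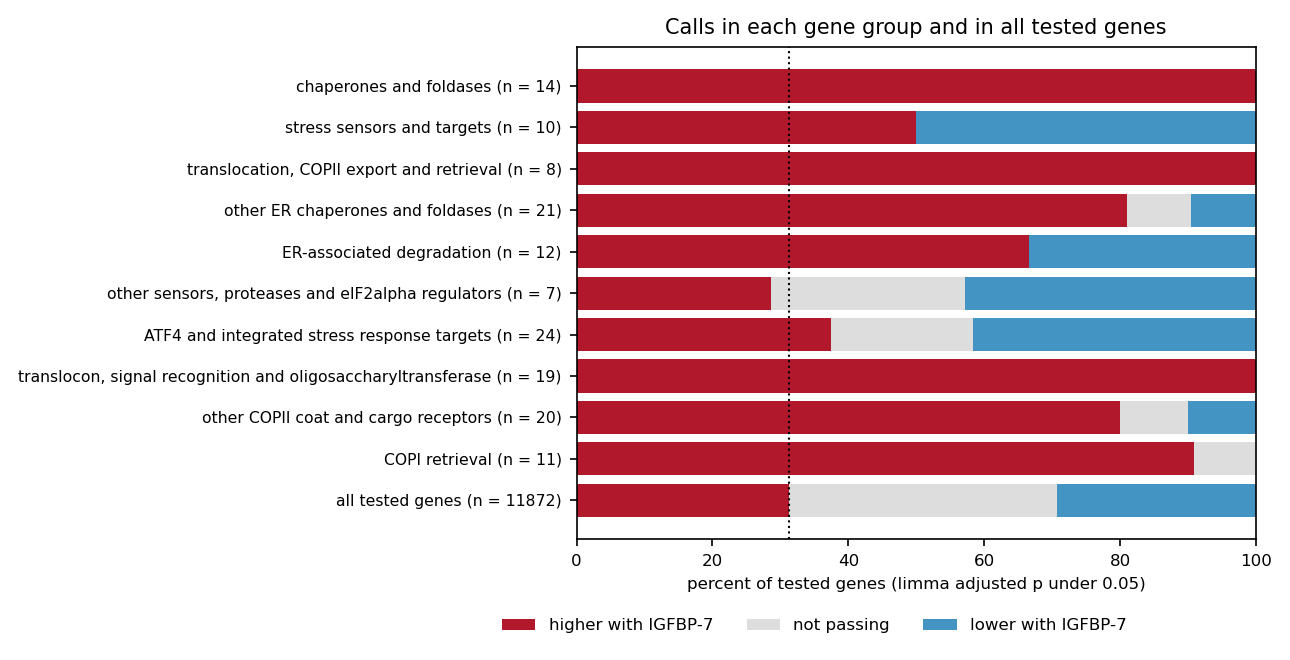
Percent of tested genes called higher (red), not passing (grey) and called lower (blue) with IGFBP-7, for the 3 groups of members, for 7 lists of other genes of the same pathways and for all 11872 tested genes (dotted line, 31.3% higher). Red fills the bars of the chaperones, of the export group and of the translocon list, and blue takes 10 of 24 genes among the ATF4 targets.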

How the data were processed

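Poly(A) RNA was made into directional libraries, per the labels' protocols. The deposited table holds normalized counts, a signal made by the authors by dividing read counts by 1 factor per library, per the file headers and the values. STAR, Subread, featureCounts and DESeq2 are named per the submitters' processing notes; the sources used here do not give genome build, annotation or strand setting. All values (100%) lay within 0.01 of a whole number of steps, so reads were recovered; edgeR 4.0.16 on them called 3541 genes higher and 3562 lower, DESeq2 1.42.0 3572 and 3536. Most recovered values (in each library about 99.6% of those above 0) were even, so 2 reads were taken as 1 fragment; a floor of 3 fragments is 2.54 to 3.20 normalized counts and covers counting error only. Libraries of a group were not duplicates (chi-square per degree of freedom 5.10 to 6.93). Limma-trend (limma 3.58.1, R 4.3.3) compared IGFBP-7 with PBS on log2(normalized count + 1), which understates changes of low genes, for 11872 genes with a mean of at least 10; it was tested on simulated data. All members are named, and per pathway list the 2 largest called rises and falls, of which 1 gene is not reported here. Members and lists were chosen with earlier results of these data known. Alternatives were TMM, edgeR, DESeq2, library totals, quantile normalization, pseudocounts 0.5 and 5, no filter or one at 100, a replicate block and leaving out each library. A planned description of protein tails was not made.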

Additional observations from a re-analysis of the deposited data

How the results depend on the processing

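No member changed sign under any alternative run. Of the 32 calls, 26 held with scaling to the library total, 30 with quantile normalization, 31 without IGFBP-7 replicate 2 and 31 without PBS replicate 1, and 32 under each of the others. With scaling to the library total, 2435 of all tested genes were higher. So were 5 genes of the export group, 5 degradation genes and 1 of the other sensors and regulators. That total is summed over all genes with a row, FN1 and COL1A1 among them. Leaving out 1 library in turn left 1 to 2 of the other sensors and regulators called higher. It left 1 to 2 of the other COPII genes called lower, and the cause was not tested. Same-numbered libraries did not deviate together (correlations of -0.049 to 0.012), so the numbers were not taken as pairs, and a fit with the replicate number as a block called 3715 genes higher and 3462 lower and kept every member's call. With 3 libraries a group and no label of separate cultures, the spread between cultures is not known. Depth did not limit the members, each of which had at least 312 reads in every library.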
